A study of Mus musculus with 2 samples.

Results

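The nuclear genes of oxidative phosphorylation were examined by complex in hippocampal tissue of mice lacking *CDK5* in endothelial cells. Members were the rows of the gene table whose symbol started with *Ndufa*, *Ndufb*, *Ndufc*, *Ndufs* or *Ndufv*, with *Uqcr*, with *Cox* followed by a digit from 4 to 8, or with *Atp5*, together with *Sdha*, *Sdhb*, *Sdhc* and *Sdhd*. Symbols ending in -ps plus digits or in Rik were left out, which removed 5 rows. The rule gave 102 of 55573 rows. Of these, 94 were annotated as protein-coding in GENCODE release M21, and 99 carried a mitochondrial cellular component term in the table.

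RNA sequencing of 1 *Cdh5-CreERT2;CDK5f/f* library and 1 *CDK5f/f* library was analysed, both from C57BL/6 mice. The *Cdh5-CreERT2;CDK5f/f* library carries loxP-flanked *CDK5* alleles and a tamoxifen-inducible Cre driven by the *Cdh5* promoter, which is active in endothelial cells, and its label gives tamoxifen as the treatment. The *CDK5f/f* library carries the same floxed alleles without the Cre, and its label gives no treatment. The labels give hippocampus as the tissue, the series text names its CA1 region, and neither gives the age at collection nor the number of mice behind each library. These are called the mutant and the control library here. With 1 library per genotype there was no replicate error and no test, and all intervals given are exact 95% intervals that cover counting error only.

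The libraries held 18900847 counts in the mutant and 19451827 in the control. *Cdk5*, a kinase expressed mainly by neurons, had 1257 counts in the mutant and 1261 in the control, so whole-tissue RNA did not check the endothelial deletion. *Xist*, the X-inactivation RNA, had 34 counts in the mutant and 15070 in the control, and *Ddx3y*, a gene of the Y chromosome, had 771 and 0, so genotype, treatment and sex cannot be told apart. All 13 choroid plexus markers were past 1.5-fold higher in the mutant, against 3.65% of all genes compared. *Aqp1*, *Cldn2*, *Folr1*, *Otx2*, *Prlr* and *Slc4a5* reached the 1 FPKM minimum (given below) only in the mutant, so it fixed their direction. The 13 markers summed to 0.625% of the counts of the mutant, against 0.0441% in the control. Their part in the values of the oxidative phosphorylation genes was not tested. The 6 excitatory neuron markers summed to 0.637% and 0.683%, the 6 astrocyte markers to 0.357% and 0.417%, and the 6 endothelial markers to 0.0147% and 0.0161% of counts in the mutant and the control. The 5 inhibitory neuron markers summed to 0.078% and 0.0748%, and the 5 microglial markers to 0.0218% and 0.0209%. Sums are weighted to abundant genes, and markers of a list did not all go the same way. Lower in the mutant were 5 of 6 excitatory, 6 of 6 astrocyte, 4 of 6 endothelial, 1 of 5 inhibitory and 3 of 5 microglial markers. Among the endothelial markers, *Cldn5* had 482 counts in the mutant and 701 in the control, and *Cdh5* had 205 and 209. Of the excitatory neuron markers, 1 of 6 (*Wfs1*) was past 1.5-fold, higher in the mutant. Fewer cells of a type and less RNA per cell cannot be told apart in such tissue.

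Oxidative phosphorylation takes electrons from NADH through complex I, or from succinate through complex II, to ubiquinone, then through complex III and cytochrome c to complex IV, where oxygen is reduced. Protons pumped by complexes I, III and IV drive the ATP synthase, complex V. Complex II is encoded wholly in the nucleus, whereas the other complexes join nuclear subunits with a few subunits of the mitochondrial genome. Neurons depend on this pathway for most of their ATP. Several complex IV subunits exist as a ubiquitous isoform and as an isoform of heart and skeletal muscle, testis or lung.

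Most members were abundant in both libraries and differed little between them. A gene was compared if its FPKM, the count scaled to exonic length and library total, was at least 1 in either library, and 92 members passed. The log2 ratio of mutant over control was taken on FPKM + 1, which shrinks the ratios of weak genes towards 1. Of the 92, 63 were above 1 and 29 below 1, with a median log2 ratio of 0.06, while all 14778 genes compared had a median of 0.00. Of those 14778, 7426 were above 1 and 7281 below. Among the 63 members above 1, *Cox4i2*, *Cox7a1*, *Cox7b2* and *Cox8b* reached 1 FPKM only in the mutant, so the filter fixed their side. Past 1.5-fold, 4 members were higher in the mutant (*Cox7a2*, *Cox6b2*, *Cox7b2* and *Cox8b*) and 1 was lower (*Ndufs5*). Over all genes compared, 3.65% were past this threshold higher and 3.16% lower. Of the 4 higher, *Cox7b2* and *Cox8b* reached 1 FPKM only in the mutant, so the filter fixed their direction, and nothing is read from it.

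The counting interval of the ratio of counts per library total lay above 1 for 25 members and below 1 for 9, and it included 1 for 58. Over all genes compared it lay above 1 for 19.7% and below 1 for 17.9%. The median FPKM of the members was 29.9 in the mutant and 29.7 in the control, and that of all genes compared was 5.87 and 5.79. Counting intervals narrow as counts rise, so the shares of members and of all genes were not compared at a like level. The members together took 0.738% of the counts of the mutant and 0.699% of those of the control.

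**Figure D1:**
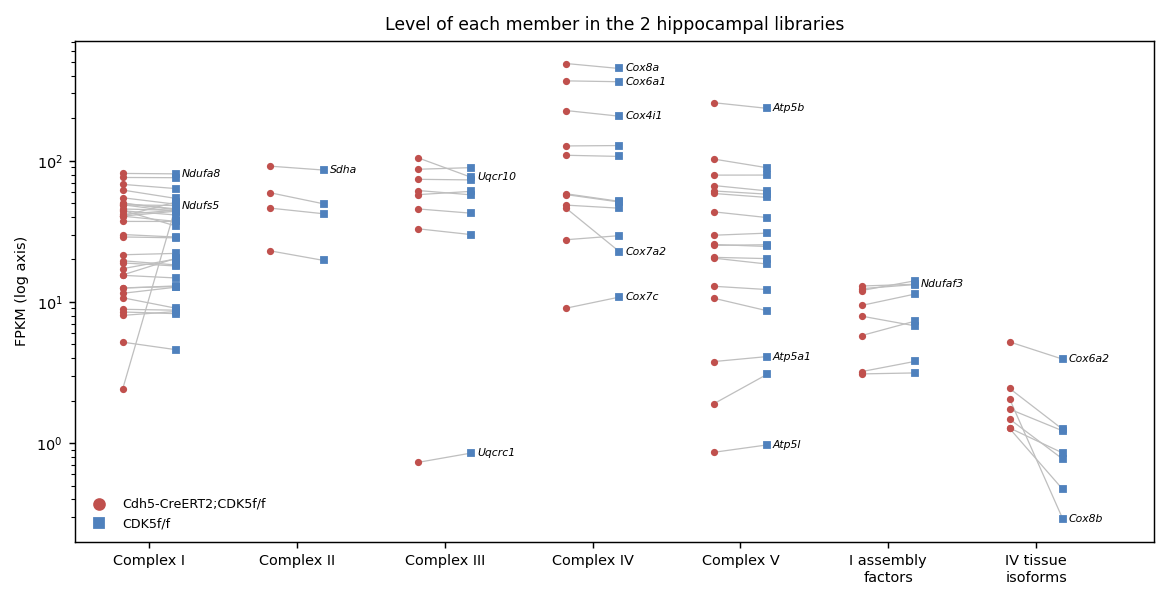
Each point is the FPKM (log axis) of a gene in the *Cdh5-CreERT2;CDK5f/f* library (red circles, left) or the *CDK5f/f* library (blue squares, right), by complex, with a grey line joining the same gene. *Cox8a* was the most abundant member at 489 FPKM in the mutant and 451 FPKM in the control, and the steepest lines are those of *Ndufs5*, *Cox8b*, *Cox7b2* and *Cox7a2*. Not drawn are *Cox7a2l*, rows named or annotated as pseudogenes, members with 0 counts in both libraries and 1 complex I gene.

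Before the complexes are taken in turn, 2 members have to be set beside near-identical copies elsewhere in the genome, because the counts of gene and copy differed between the libraries in opposite directions. *Ndufs5* encodes an accessory subunit of the membrane arm of complex I and lies on chromosome 4 from 123712710 to 123718202, on the minus strand (GRCm38). *BC002163* lies on chromosome 16 from 42955631 to 42955949. Its 319 bases match the 321-base coding sequence of *Ndufs5* with 2 differences. The first 120 bases of both are shown because both differences fall there, in capitals:
Ndufs5: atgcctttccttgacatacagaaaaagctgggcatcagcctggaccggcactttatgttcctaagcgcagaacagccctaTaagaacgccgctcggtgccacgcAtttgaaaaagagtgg
BC002163: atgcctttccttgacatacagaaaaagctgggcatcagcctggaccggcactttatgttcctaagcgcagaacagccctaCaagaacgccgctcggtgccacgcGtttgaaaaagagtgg

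*Ndufs5* had 39 counts in the mutant and 797 in the control, a ratio of 0.0504 (interval 0.0355 to 0.0695). *BC002163* had 771 counts in the mutant and 8 in the control. Nearly all counts of the pair were on the copy in the mutant (95.2%) and nearly none in the control (0.994%). The sums of gene and copy were 810 in the mutant and 805 in the control, a ratio of 1.04 (0.938 to 1.14), so a difference in the sum was not detectable at this depth. The other 5 members on chromosome 4 had ratios from 0.79 (*Ndufaf4*, 0.695 to 0.898) to 1.10 (*Sdhb*, 1.03 to 1.17).

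The second pair was *Cox7a2l* and *Gm6969*. *Cox7a2l*, also called *Scaf1*, encodes a relative of *Cox7a2* that joins complex III and complex IV into supercomplexes, and C57BL/6 mice are known for a shortened allele of it. It lies on chromosome 17 from 83501918 to 83517330, on the minus strand, and *Gm6969* lies on chromosome 12 from 24638669 to 24639010 (GRCm38). The copy of 342 bases carries 6 bases that the 336-base coding sequence of *Cox7a2l* in the reference lacks, and 2 further differences. The stretch around the additional bases is shown because it tells the copy from the gene, with capitals at the bases that differ or are present only in the copy:
Cox7a2l: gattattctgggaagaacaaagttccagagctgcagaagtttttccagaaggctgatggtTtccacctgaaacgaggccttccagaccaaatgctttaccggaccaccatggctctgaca
Gm6969: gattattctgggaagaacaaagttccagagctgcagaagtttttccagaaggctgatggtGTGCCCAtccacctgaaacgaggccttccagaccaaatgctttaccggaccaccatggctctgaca

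*Cox7a2l* had 1681 counts in the mutant and 1190 in the control, a ratio of 1.45 (1.35 to 1.57) and a log2 ratio of 0.53, just inside the 1.5-fold threshold. *Gm6969* had 470 counts in the mutant and 1029 in the control, so the copy took 21.9% of the pair's counts in the mutant and 46.4% in the control. Their sums were 2151 and 2219, a ratio of 1.00 (0.94 to 1.06). Which alleles of *Ndufs5* and *Cox7a2l* the mice carried was not tested, because the reads were not used here.

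Near-identical copies, with at least 95% identity over at least 200 bases, were found for 28 members. The 28 include the pseudogene rows *Atp5l2-ps*, *Cox6c2*, *Ndufab1-ps*, *Ndufb4c* and *Ndufs6b*, whose matches include their parent genes, so those pairs enter from both sides. The ATP synthase c ring gene *Atp5g1* had 986 counts in the mutant and 827 in the control beside 1118 and 1121 on its copy. *Ndufa12*, an accessory subunit of complex I, had 238 and 261 counts in the mutant and the control beside 489 and 527 on its copy. *Atp5h*, a stalk subunit, had 1850 and 1745 beside 532 and 497 on 4 copies. The copies' share was 53.1% in the mutant and 57.5% in the control for *Atp5g1*, 67.3% and 66.9% for *Ndufa12*, and 22.3% and 22.2% for *Atp5h*. With its copy, *Atp5g1* had sums of 2104 in the mutant and 1948 in the control, a ratio of 1.11 (1.04 to 1.18). The ratios of *Ndufs5* and *Cox7a2l* above describe the gene rows alone.

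**Figure D2:**
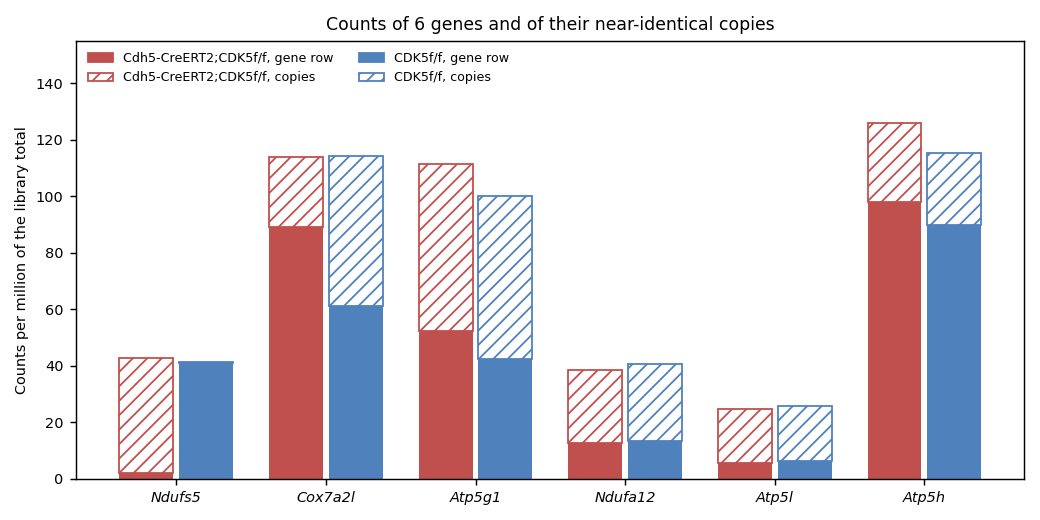
Stacked bars give counts scaled to the library total (CPM) for the row of each gene (filled) and the sum of its near-identical copies (hatched), in the *Cdh5-CreERT2;CDK5f/f* library (red, left) and the *CDK5f/f* library (blue, right). The total heights for *Ndufs5* (810 and 805 counts) and *Cox7a2l* (2151 and 2219 counts) are close while the filled parts differ.

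Complex I, the NADH dehydrogenase, was represented by 36 subunits, of which 35 passed the minimum level. Their median log2 ratio was 0.02, with 24 ratios above 1 and 11 below, and intervals above 1 for 5 and below 1 for 5. Over all genes compared, the interval lay above 1 for 19.7% and below 1 for 17.9%. The only subunit past 1.5-fold was *Ndufs5*, whose ratio was described above with its copy.

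The 7 core subunits, which hold the flavin and the iron-sulfur clusters, all had ratios of at least 1 where measured. *Ndufs7*, which carries the last iron-sulfur cluster before ubiquinone, had 50.3 FPKM in the mutant and 45.0 FPKM in the control (ratio 1.12, 1.04 to 1.20). *Ndufv1*, which binds NADH and flavin, had 54.7 FPKM in the mutant and 49.3 FPKM in the control (ratio 1.11, 1.05 to 1.17). The intervals of the other 4 measured core genes included 1. *Ndufs3* was listed with 0 counts in both libraries. For counting error alone, 0 counts allow up to 0.0729 FPKM in the mutant and 0.0708 FPKM in the control. That limit holds only if reads of the gene were counted on its row, which was not tested. *Kbtbd4*, which overlaps *Ndufs3* on the opposite strand, was also at 0 in both libraries, and the copy *Gm12251* held 67 and 77 counts.

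Among the 29 accessory subunits the median log2 ratio was 0.02, with intervals above 1 for 3 and below 1 for 5, against 19.7% and 17.9% of all genes compared. All 5 below 1 were among the 19 membrane-arm subunits, of which 2 had an interval above 1. They included *Ndufs5*, whose sum with its copy had an interval that included 1. *Ndufa9*, a matrix-arm subunit beside the ubiquinone site, had the highest ratio of the complex, with 1770 counts in the mutant and 1411 in the control (1.29, 1.20 to 1.39). *Ndufb7* followed with 915 and 794 counts (1.19, 1.08 to 1.31). At the other end, *Ndufa3* had 300 counts in the mutant and 405 in the control (0.762, 0.654 to 0.887). *Ndufc2*, a small membrane-arm subunit, had 579 and 748 counts (0.797, 0.713 to 0.889), and *Ndufc1* had 486 and 586 (0.854, 0.755 to 0.964). *Ndufa8* and *Ndufb9*, the most abundant accessory subunits, had 81.4 and 76.2 FPKM in the mutant and 80.9 and 75.9 FPKM in the control. Of all 15 matrix-arm subunits compared, core subunits included, 3 had an interval above 1 (*Ndufs7*, *Ndufv1* and *Ndufa9*) and 0 had one below 1.

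The 8 *Ndufaf* genes encode assembly factors that build complex I and are absent from the finished enzyme. They were weaker, at 3.09 to 13.0 FPKM in the mutant and 3.14 to 14.1 FPKM in the control. All but 1 had a ratio below 1, with a median log2 ratio of -0.14. Over all genes compared, 7281 of 14778 had a ratio below 1, and 17.9% had an interval below 1. *Ndufaf4* had 426 counts in the mutant and 555 in the control (0.79, 0.695 to 0.898) and *Ndufaf1* had 268 and 332 (0.831, 0.705 to 0.979), which were the 2 with an interval below 1. *Ndufaf7*, a methyltransferase, went the other way with 525 and 461 counts (1.17, 1.03 to 1.33). The row of *Ndufaf2* shares 65.7% of its exonic bases with a gene on the opposite strand, so its 174 and 182 counts cannot be given to it with certainty. A further 6 complex I assembly factors with other symbols had a median log2 ratio of -0.03, and none of their intervals excluded 1.

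Complex II, succinate dehydrogenase, also belongs to the citric acid cycle. Its 4 subunits had ratios from 1.07 to 1.20, a median log2 ratio of 0.17, and intervals above 1 in all 4, and none was near 1.5-fold. Over all genes compared, the interval lay above 1 for 19.7%. Each of the 4 rows held at least 1187 counts in either library, where counting intervals are narrow. *Sdha*, the flavin subunit, had 7145 counts in the mutant and 6903 in the control (1.07, 1.03 to 1.10). *Sdhb*, the iron-sulfur subunit, had 1955 and 1836 counts (1.10, 1.03 to 1.17). The membrane anchors had the larger ratios, *Sdhc* with 1413 and 1245 counts (1.17, 1.08 to 1.26) and *Sdhd* with 1381 and 1187 (1.20, 1.11 to 1.29). Neighbours in this order had overlapping intervals, whereas the intervals of *Sdhd* and *Sdha* did not overlap. In the citric acid cycle list of 14 genes, 10 had a ratio above 1, none was past 1.5-fold and the median log2 ratio was 0.08. Over all genes compared, 7426 of 14778 had a ratio above 1.

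Complex III, the cytochrome bc1 complex, had 8 members. The 7 that passed the minimum level had a median log2 ratio of 0.10, and the interval excluded 1 only for *Uqcr10*. Over all genes compared, the interval lay above 1 for 19.7% and below 1 for 17.9%. *Uqcr10*, a small subunit at the cytochrome c1 side, had 1158 counts in the mutant and 867 in the control, or 105 and 76.3 FPKM (1.37, 1.26 to 1.503). *Uqcrfs1*, the Rieske iron-sulfur protein, had 87.1 FPKM in the mutant and 89.5 FPKM in the control, and *Uqcrc2*, a core protein, had 74.0 and 73.2 FPKM. *Uqcrb* had 546 and 511 counts (1.10, 0.973 to 1.24) and *Uqcr11* had 698 and 758 (0.948, 0.854 to 1.05). *Uqcrc1*, the partner of *Uqcrc2* in the core, had 57 counts in the mutant and 68 in the control, or 0.73 and 0.85 FPKM, and was the weakest. It had no copy under the rule and no exonic overlap. *Cyc1*, cytochrome c1, which the naming rule does not take in, had 2637 and 2515 counts.

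Complex IV, cytochrome c oxidase, held the most abundant members. Its 11 ubiquitous subunits, with *Ndufa4* counted here, had a median log2 ratio of 0.07, intervals above 1 for 5 and an interval below 1 for 1. The shares over all genes compared were 19.7% above 1 and 17.9% below 1. *Cox8a* had 489 FPKM in the mutant and 451 FPKM in the control (1.08, 1.05 to 1.13). *Cox6a1* had 369 and 364 FPKM (1.01, 0.975 to 1.06), and *Cox4i1*, which binds the regulatory adenine nucleotides, had 227 and 207 FPKM (1.10, 1.06 to 1.14).

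*Cox7a2*, the ubiquitous form of subunit VIIa, was the exception. It lies on chromosome 9 from 79755361 to 79759878 and had 824 counts in the mutant and 418 in the control, or 46.2 and 22.8 FPKM. The ratio was 2.03 (1.80 to 2.29) and the log2 ratio 0.99, the largest of any member with at least 100 counts. No near-identical copy was found by the rule used for *Ndufs5*, and no other gene shared its exons. Of the genes beside it, *Tmem30a* had 6243 and 6782 counts, *Filip1* had 249 and 373, and *Col12a1* had 289 and 119.

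Of the other ubiquitous subunits, *Cox5b*, which binds zinc, had 1752 counts in the mutant and 1594 in the control (1.13, 1.06 to 1.21). *Cox6c* had 1861 and 2046 counts (0.936, 0.879 to 0.997) and was the single subunit with an interval below 1 on its own row. *Cox7c* had the lowest ratio at 193 and 238 counts (0.835, 0.687 to 1.01), and its interval included 1. With the counts of its copy added, 193 and 242, the ratio was 0.821 (0.676 to 0.996), an interval below 1.

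The tissue isoforms of complex IV were weak in both libraries, and 7 of 8 passed the minimum level. Of these, *Cox4i2*, *Cox7a1*, *Cox7b2* and *Cox8b* reached 1 FPKM only in the mutant, so the filter itself fixed their direction, and nothing is read from the direction of the set. The counting interval included 1 for 5 of the 7. *Cox6b2*, the testis form of subunit VIb, had 51 counts in the mutant and 27 in the control, or 2.44 and 1.25 FPKM (1.94, 1.20 to 3.22). *Cox8b*, the heart and skeletal muscle form of subunit VIII, had 14 and 2 counts (7.20, 1.65 to 65.3). *Cox7b2*, a testis form of subunit VIIb, had 13 and 5 counts (2.68, 0.895 to 9.59), so it was past 1.5-fold while its counting interval included 1.

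The other 4 lay inside the threshold on the scale of FPKM + 1, and their intervals included 1. *Cox6a2*, the heart and skeletal muscle form of subunit VIa, had 67 counts in the mutant and 52 in the control (1.33, 0.909 to 1.94) and was the most abundant isoform at 5.21 and 3.93 FPKM. *Cox4i2*, a lung form of subunit IV, had 19 and 13 counts, and *Cox7a1*, the heart and skeletal muscle form of subunit VIIa, had 15 and 8. *Ndufa4l2*, a relative of *Ndufa4* induced by hypoxia, had 36 and 26. *Cox8c*, a testis form, was at 0 in both, which allows up to 0.347 FPKM in the mutant and 0.337 FPKM in the control.

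Set against its ubiquitous partner, each isoform was a small share of its family. *Cox8b* was 0.244% of the *Cox8* family counts in the mutant (exact binomial interval 0.1334 to 0.409%) and 0.0368% in the control (0.0045 to 0.1329%). These intervals all but met, and the filter had fixed the direction of *Cox8b*. *Cox6b2* was 2.90% (2.17 to 3.80%) of the *Cox6b* family counts in the mutant and 1.505% (0.994 to 2.18%) in the control. *Cox6a2* was 1.35% (1.05 to 1.71%) of the *Cox6a* family counts in the mutant and 1.04% (0.775 to 1.36%) in the control. The intervals of the 2 libraries overlapped for *Cox6a2* and, narrowly, for *Cox6b2*. Of the striated muscle markers, *Ckm*, muscle creatine kinase, had 4 counts in the mutant and 1 in the control, and the list of 5 summed to 797 and 828 counts.

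**Figure D3:**
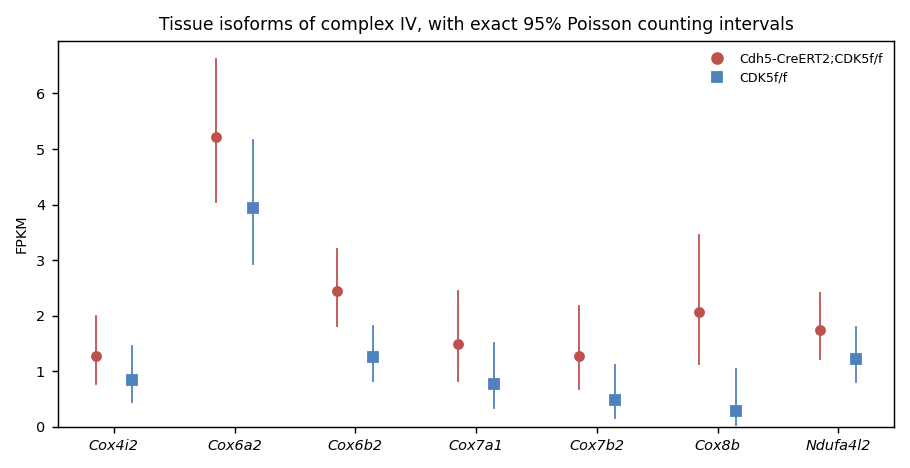
Points are the FPKM of 7 tissue isoforms of complex IV in the *Cdh5-CreERT2;CDK5f/f* library (red circles, left) and the *CDK5f/f* library (blue squares, right), and bars are exact 95% Poisson counting intervals. *Cox4i2*, *Cox7a1*, *Cox7b2* and *Cox8b* are shown because they reached 1 FPKM in the mutant alone, so the filter fixed their direction. The bars of *Cox8b* (2.06 and 0.29 FPKM) do not meet, from which nothing is read. Those of the other 6 overlap, narrowly for *Cox6b2* (2.44 and 1.25 FPKM).

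Complex V, the ATP synthase, had 17 subunits, of which 16 passed the minimum level. Their median log2 ratio was 0.07, with intervals above 1 for 6 and below 1 for 1, and none was past 1.5-fold. The interval shares over all genes compared were 19.7% above 1 and 17.9% below 1. In the catalytic F1 part, *Atp5b*, the catalytic beta subunit, had 20673 counts in the mutant and 19406 in the control, or 258 and 235 FPKM (1.10, 1.08 to 1.12). *Atp5d*, the delta subunit of the rotor, had 103 and 89.3 FPKM (1.15, 1.10 to 1.21), and *Atp5c1*, the gamma subunit, had 79.2 and 79.3 FPKM (0.999, 0.949 to 1.05). *Atp5a1*, which alternates with *Atp5b* protein in the catalytic ring, was listed at only 3.78 FPKM in the mutant and 4.10 FPKM in the control (0.922, 0.766 to 1.11).

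The peripheral stalk, which holds the catalytic part still, had 4 genes with a median log2 ratio of 0.11. *Atp5f1* had 3374 counts in the mutant and 3164 in the control (1.10, 1.05 to 1.15), and *Atp5h*, whose counts are given above with its copies, had a ratio of 1.09 (1.02 to 1.17). The 4 measured small membrane subunits had a median of 0.04 and no interval excluding 1. *Atp5l*, the subunit of this set under the minimum level, had 105 and 121 counts beside 362 and 381 on 10 copies.

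The c ring, which turns with the proton flow, is encoded by 3 genes for the same mature protein. The row of *Atp5g3* had the highest FPKM of the 3, at 61.2 FPKM in the mutant and 58.0 FPKM in the control (1.05, 0.996 to 1.11). *Atp5g1* was higher in the mutant at 986 counts against 827 (1.23, 1.12 to 1.35). *Atp5g2* had 60 counts in the mutant and 100 in the control (0.617, 0.441 to 0.859) and was the lowest subunit of the complex. Its log2 ratio of -0.49 lay inside the threshold on the scale of FPKM + 1. As shares of the summed FPKM of the 3 genes, *Atp5g1* was 14.4% in the mutant and 12.4% in the control, and *Atp5g2* was 2.58% and 4.40%. These shares are per length and leave out the copies, which for *Atp5g1* held more counts than the gene itself in both libraries.

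**Figure D4:**
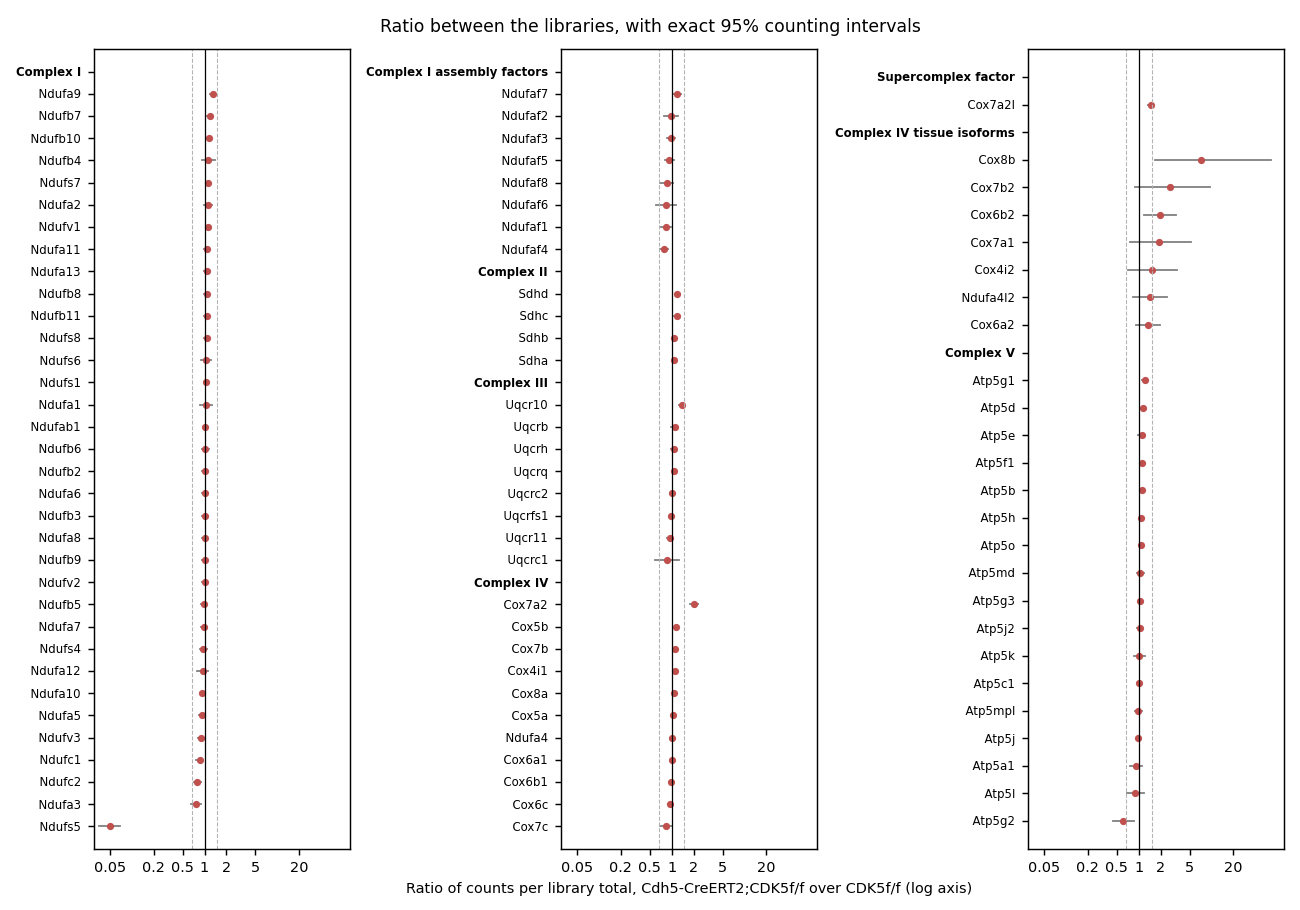
Each point is the ratio of counts per library total, *Cdh5-CreERT2;CDK5f/f* over *CDK5f/f* (log axis), and each bar its exact 95% counting interval, for subunits, assembly factors and isoforms with counts in both libraries, by complex, with 1 complex I gene not drawn. Solid lines mark 1 and dashed lines 1.5-fold either way. Of the ubiquitous subunits, *Ndufs5* at 0.0504, *Atp5g2* at 0.617 and *Cox7a2* at 2.03 lie outside the dashed lines, and the weak tissue isoforms have the widest bars.

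Side by side, the complexes had median log2 ratios of 0.02 (I), 0.17 (II), 0.10 (III), 0.07 (IV) and 0.07 (V), each taken over genes of a single pair of libraries. The remaining 9 members were 8 rows named or annotated as pseudogenes and a second row of *Atp5o*. Of these, *Ndufab1-ps* had 88 counts in the mutant and 90 in the control, *Ndufb1-ps* had 219 and 199, *Ndufb4c* had 9 and 14, and the others had at most 3 counts in either library.

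The nuclear subunits were also set beside genes that act with them. Of 12 protein genes of the mitochondrial genome that passed the minimum level, 10 had a ratio below 1, with a median log2 ratio of -0.12. Of the 12, *mt-Nd3* reached 1 FPKM only in the mutant and *mt-Nd4l* only in the control, so the filter fixed their directions. The interval lay below 1 for 7 of the 12 and included 1 for 5, while it lay below 1 for 17.9% of all genes compared. Over all genes compared, 7281 of 14778 had a ratio below 1. *mt-Co1*, a catalytic subunit of complex IV, had 7812 FPKM in the mutant and 8476 FPKM in the control (0.922, 0.917 to 0.927), and *mt-Nd1*, a membrane subunit of complex I, had 3166 and 4010 FPKM (0.789, 0.781 to 0.798). Since these transcripts and the nuclear ones share each library's total, the values are relative. Among 31 measured assembly factors of complexes II to V, 2 were past 1.5-fold higher, against 3.65% of all genes compared. Their median log2 ratio over the 31 was 0.03. *Lyrm7*, which helps insert the Rieske protein into complex III, had 262 counts in the mutant and 77 in the control (3.50, 2.71 to 4.58), and *Sco2*, which delivers copper to complex IV, had 67 and 27 (2.55, 1.61 to 4.15). *Lyrm7* had 2.74 FPKM in the mutant and 0.78 FPKM in the control, so the filter fixed its direction. Copies and exonic overlap were searched for members only, and not for *Lyrm7* and *Sco2*. None of 14 regulators of mitochondrial biogenesis was past 1.5-fold, with a median of -0.01.

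Promoters of members were searched for the binding motif of NRF1, an activator of many respiratory chain genes, written GCGCATGCG, and for the ETS family motif CCGGAAGT, on both strands. RefSeq promoters (GRCm38.p6, from 250 bases before to 50 bases after the start) were matched for 75 members by symbol. The NRF1 motif was in 10 of them (13.3%), against 527 of 27025 genes (1.95%). The 10 were *Ndufaf4*, *Ndufaf5*, *Ndufa8*, *Ndufa11*, *Uqcrc1*, *Uqcr11*, *Cox6a1*, *Atp5g2*, *Atp5k* and *Atp5l*. The ETS motif was in 5 of 75 (6.67%), against 4.31% of all genes, and *Uqcr11* had both. Stretches from the promoters of an assembly factor, a complex IV subunit and a complex I subunit are shown because these members had ratios on both sides of 1, with the NRF1 motif and its overlapping match on the other strand in capitals:
Ndufaf4, chr4:24897945-24898004 (+): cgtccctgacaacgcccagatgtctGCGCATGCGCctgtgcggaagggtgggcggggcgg
Cox6a1, chr5:115349086-115349145 (-): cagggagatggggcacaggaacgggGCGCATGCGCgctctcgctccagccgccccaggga
Ndufa11, chr17:56717677-56717736 (+): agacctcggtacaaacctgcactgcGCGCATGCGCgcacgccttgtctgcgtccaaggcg

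*Ndufaf4* had 5.78 FPKM in the mutant and 7.31 FPKM in the control, *Cox6a1* had 369 and 364 FPKM, and *Ndufa11*, an accessory subunit of the complex I membrane arm, had 49.8 and 45.7 FPKM. Members with the motif were thus found at low and at high levels, with log2 ratios of -0.29, 0.02 and 0.12 in these 3. The counting intervals of *Cox6a1* and *Ndufa11* included 1. A match says only that these letters are in the window.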

How the data were processed

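Polyadenylated or rRNA-depleted RNA was sequenced; the labels name both kits. The authors deposited counts per gene and FPKM for the same rows, and the deposited FPKM equals the count scaled by exonic length and library total, to rounding. Build mm9 and the tools HISAT2 2.0.1, HTSeq 0.6.1, DESeq2 and cutadapt 1.9.1 are listed by the submitters' processing notes. The table's coordinates are instead those of GRCm38, since all 102 members have the same start and end as in GENCODE M21. The sources used here do not state whether strand was used or how multiply matching reads were handled. Genes with copies are uncertain for that reason, as are overlapping genes (14 members share at least 10% of their exonic bases).

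Log2 ratios used FPKM + 1, and intervals are exact conditional (Clopper-Pearson) intervals on counts, computed with SciPy 1.17.1 and tested on simulated data. Copies were found with BLAST 2.17.0 among GENCODE M21 transcripts, covering at least 50% of the shorter transcript. The members and the lists were chosen with earlier results of these data known. Genes named were all members past 1.5-fold, in each complex the 3 most abundant and the 2 highest and 2 lowest ratios among those with at least 100 counts, all tissue isoforms and members with copies given; *Ndufc1*, *Ndufc2*, *Ndufs7*, *Ndufv1*, *Ndufaf1*, *Ndufaf4*, *Ndufaf7*, *Atp5f1* and *Atp5g3*, along with *Cox7a2l*, *Lyrm7* and *Sco2*, were added after their values were seen. A gene of complex I that the naming rule takes in is not reported here. Alternatives were a pseudocount of 0.1, TMM scaling (edgeR 4.0.16), median-of-ratios scaling (DESeq2 1.42.0), totals without choroid plexus, mitochondrial and haemoglobin genes, an FPKM minimum of 5 or none, and copies added to their genes.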

Additional observations from a re-analysis of the deposited data

How the results depend on the processing

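With 1 library per genotype, every value describes this pair of libraries, and differences between mice, dissections or batches could not be measured. Members past 1.5-fold higher numbered 4, 5 with a pseudocount of 0.1, and 1 with an FPKM minimum of 5, which leaves out the weak tissue isoforms. Members past 1.5-fold lower numbered 1, 2 with a pseudocount of 0.1, where *Atp5g2* joined *Ndufs5*, and 0 when counts of near-identical copies were added. The log2 ratio of *Ndufs5* was -3.84 for its row alone and 0.0495 with its copy. With a pseudocount of 0.1, those of *Atp5g2* (-0.66) and *Cox7a1* (0.86) passed the threshold. The filter fixed the direction of *Cox7a1*, as of *Cox7b2* and *Cox8b* among the 4 higher, since each reached 1 FPKM only in the mutant. In an alternative chosen after seeing the data, the 58 compared members with no near-identical copy and under 10% exonic overlap gave 4 higher and 0 lower, with a median log2 ratio of 0.07. The medians of complexes I to V were not computed for that alternative, and kept a positive sign under the others, between 0.01 and 0.18. No paired analysis was possible because each genotype had a single library.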
